A study of Mus musculus with 9 samples.

Results

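The Id proteins and the E proteins were followed across 9 RNA sequencing libraries of mouse natural killer (NK) cells grown from bone marrow. The 6 genes are Id1, Id2 and Id3, which encode inhibitor of DNA binding proteins, and Tcf3, Tcf4 and Tcf12, which encode the E proteins E2A, E2-2 and HEB. They were chosen by symbol, each symbol names 1 row, and they are 6 of the 16876 genes in the deposited table. Marrow from femurs of C57BL/6 mice was first kept for 4 days in a cytokine mix that held 50 ng/mL of IL-15, 30 ng/mL of SCF, 10 ng/mL of Flt3L and 1 ng/mL of IL-7. A further week followed in 20 ng/mL of IL-2 with IL-15 kept at 50 ng/mL, and the cells of every group were raised on these same cytokines. Ctrl cells (n = 3) had no further treatment. TGFb cells (n = 3) were exposed for 3 h to 5 ng/mL of TGF-β1. SIS3_TGFb cells (n = 3) were held for 3 h in 10 µM SIS3, which inhibits Smad3, before the same 3 h exposure to TGF-β1 (5 ng/mL). The titles of this last group name SIS3 alone, while its treatment text gives both agents. No group had SIS3 without TGF-β1, and the labels used here give neither the age of the mice nor a solvent control. The labels do not say whether the libraries of a group were grown separately or from different mice. Each p-value therefore reflects only how far these libraries spread, which may be technical.

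E proteins are basic helix-loop-helix transcription factors that pair with one another or with tissue-specific partners and bind the E-box, a short DNA motif. Id proteins carry the helix-loop-helix without the basic region, so they pair with E proteins and keep them off DNA. Innate lymphocytes depend on this brake: NK cells need Id2 to mature and to respond to IL-15, while E proteins drive the B and T cell fates. Id1 and Id3 are textbook targets of BMP signalling through SMAD1 and SMAD5, and TGF-β acts on Id genes in many cell types. The factor named Tcf4 here is E2-2, which is also a master regulator of plasmacytoid dendritic cells, and not the Wnt pathway factor Tcf7l2, which shares the alias.

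The sequences shown are the stretches before the gene starts of the members whose changes are described most closely below, Id2 and Id3 after TGF-β1 and Tcf12 after SIS3. They come from RefSeq (GRCm38.p6), from whose promoter table the entries of Id2, Id3, Tcf3 and Tcf12 were used, and capitals mark the motif matches. The motifs searched on both strands were the E-box CANNTG, its form CAGCTG, which lies within CANNTG and is bound by E proteins, CAGAC, the core bound by SMAD3 and SMAD4, and GGCGCC, a GC-rich motif bound by SMADs. For Id2 and Tcf12 the stretch stops at the first annotated exon of the gene, and for Id3 only the surroundings of each match are shown.
Id2 (minus strand, chr12:25096254-25096342), with GGCGCC and then CAGCTG in capitals: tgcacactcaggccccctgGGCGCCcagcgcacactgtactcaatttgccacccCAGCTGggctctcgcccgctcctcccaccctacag
Id3, CAGAC match (plus strand, chr4:136143645-136143669): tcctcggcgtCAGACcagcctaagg
Id3, CAGAC match read on the other strand (plus strand shown, chr4:136143744-136143768): acccttggcgGTCTGttttgaataa
Tcf12 (minus strand, chr9:72111894-72112069), with CAGCTG in capitals: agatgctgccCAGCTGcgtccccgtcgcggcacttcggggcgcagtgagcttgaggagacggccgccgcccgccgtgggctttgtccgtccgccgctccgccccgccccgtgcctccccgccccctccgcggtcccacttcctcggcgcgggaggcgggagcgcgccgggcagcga
Over the 250 bases before the start, Id2 held 1 CAGCTG and 1 GGCGCC and no CAGAC. Id3 held 2 CAGAC and none of the other motifs. Tcf12 held 1 CAGCTG and neither CAGAC nor GGCGCC before the outermost of its 3 listed starts, the start whose window is shown in part. Before the next start it held 1 CAGAC and 1 CANNTG and neither CAGCTG nor GGCGCC, and before the innermost start it held none of the motifs. Tcf3 held 1 CANNTG and none of the others. Of the 32851 windows of this length in the RefSeq table, 66.2% held CANNTG, 13% CAGCTG, 42.2% CAGAC and 9.59% GGCGCC. A match describes the letters only and is not evidence of binding.

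Among the cell type marker lists, the NK list had the highest sum in every library. The 14 NK markers summed to between 20800 and 21900 CPM (counts scaled to a common library size, by TMM) in Ctrl, 15900 and 17400 in TGFb, and 17300 and 17500 in SIS3_TGFb, led by the granule protease Gzmb (38.6%). Macrophage and monocyte markers (12 of 12 in the table, 0 at 0 in every library) ranged over 1320 to 1760 CPM, 951 to 1520 CPM and 1100 to 1830 CPM. The 10 conventional dendritic cell markers ranged over 573 to 807 CPM, 461 to 732 CPM and 519 to 904 CPM. The 10 mast cell and basophil markers in the table ranged over 614 to 638 CPM, 575 to 642 CPM and 555 to 653 CPM. Neutrophil markers ranged over 258 to 298 CPM, 234 to 248 CPM and 220 to 233 CPM, of which Ctsg made up 97.9%. The 8 B cell markers summed to at most 3.2 CPM in any library. Library totals ran from 15714973 to 16718673 expected counts. TGFb replicate 3 stood apart on the second principal component (-30.4 against -15.2 and -17.7 in the other TGFb libraries), and its erythroid and megakaryocyte markers summed to 7.66 CPM, where the remaining libraries had 29.7 to 47.9 CPM. SIS3_TGFb replicate 3 had the highest macrophage marker sum. In bulk RNA, fewer cells of a type and less RNA per cell cannot be told apart.

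Levels between genes were compared per kilobase of exon. Id2 was by far the most abundant member, at 357 ± 15.1 CPM per kilobase in Ctrl (SD, n = 3), and made up 98.9% of the summed Id level in Ctrl, 99% in TGFb and 98.9% in SIS3_TGFb. By CPM it ranked 143 of 16876 genes in Ctrl. Id1 (1.97 ± 0.246 CPM per kilobase) and Id3 (1.98 ± 0.0845 CPM per kilobase) lay at the foot of the order in Ctrl and did not differ beyond their spread. They rest on 20 to 40 counts per library for Id1 and 22 to 42 for Id3, so their changes have wide intervals. The remaining family gene, Id4, had 1 count in 1 library.

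The 3 E protein genes were at similar CPM in Ctrl, and their order per kilobase depended on the length used. With the union of all exons, Tcf3 (22.4 ± 0.683 CPM per kilobase) stood above Tcf12 (11.6 ± 0.358) and Tcf4 (5.69 ± 0.349). With the median coding transcript, Tcf4 came first (32.4 ± 1.98), then Tcf3 (25.3 ± 0.771) and Tcf12 (18.3 ± 0.565). The lengths of Tcf4 differ most, at 13366 bases of exon against a median coding transcript of 2348 bases over 24 transcripts, and the counts are per gene, so which transcripts the cells used was not measured. Under both lengths Id2 was above each E protein gene in every group.

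All 6 members passed the filter on low counts, which left 12212 genes. The first comparison, TGFb versus Ctrl, addressed the response to TGF-β1 after 3 h. Every member had a negative log2 change, and 5 of 6 fell at an adjusted p below 0.05, with none risen, against 34.3% of all genes past the test (17.9% risen and 16.4% fallen). The median log2 change of the members was -0.39, beside -0.004 over all genes tested. With upper-quartile factors the whole table split into 1807 rises and 2568 falls, against 2186 and 2004 with the TMM factors used here. The count of 5 was 3 in DESeq2, 3 with a replicate block and 3 with the stricter filter, which removes Id1 and Id3. With any 1 library left out it was 3 to 4, and it was 3 without Ctrl replicate 3 or TGFb replicate 1. The same 5 members had libraries that did not overlap between the groups, against 45% of all genes.

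Id2, on chromosome 12 (25093799 to 25096092 in GRCm38.p6, Entrez 15902), stood at 898, 887 and 829 CPM in Ctrl, at 618, 638 and 699 CPM in TGFb and at 749, 737 and 729 CPM in SIS3_TGFb. The 3 groups did not overlap, with every SIS3_TGFb library between the other groups. Id2 fell with TGF-β1 by 0.42 on the log2 scale (SE 0.0452, edgeR adjusted p = 1.97e-06), to 74.8% of its Ctrl mean. Within TGFb the library highest in Id2, replicate 3, was also the one highest in NK markers (17400 CPM against 15900 in both others), and in Ctrl replicate 1 was highest in both. In SIS3_TGFb the order differed: replicate 1 was highest in Id2 and lowest in NK markers (17300 CPM against 17500 and 17400 CPM). The part of the NK marker level in the Id2 change was not tested.

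Id3, the other Id protein known for holding E2A in check in lymphocytes (chromosome 4, 136143822 to 136145392, Entrez 15903), stood at 2.65, 2.53 and 2.43 CPM in Ctrl and at 1.35, 1.77 and 1.66 CPM in TGFb. The groups did not overlap, and the log2 change was -0.67 ± 0.228 (SE, adjusted p = 0.0333). That call ended in DESeq2 (adjusted p = 0.113) and without Ctrl replicate 1 (0.0838), Ctrl replicate 2 (0.0721), Ctrl replicate 3 (0.0621) or TGFb replicate 1 (0.119).

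Id1, a promoter of growth and a delayer of differentiation in many cells (chromosome 2, 152736251 to 152737410, Entrez 15901), stood at 1.96, 2.46 and 2.43 CPM in Ctrl and at 1.48, 1.77 and 1.33 CPM in TGFb. The groups did not overlap, and the log2 change of -0.58 ± 0.216 lay at the threshold itself (adjusted p = 0.0499). That call ended in DESeq2 (adjusted p = 0.181), with no filter (0.0765), with only the 6 libraries of the comparison (0.0762), and without Ctrl replicate 2 (0.136), Ctrl replicate 3 (0.136), TGFb replicate 1 (0.115), TGFb replicate 2 (0.0501), TGFb replicate 3 (0.132), SIS3_TGFb replicate 1 (0.0662), SIS3_TGFb replicate 2 (0.0625) or SIS3_TGFb replicate 3 (0.0569).

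Among the E proteins, Tcf3, whose transcripts give E12 and E47 by splicing (chromosome 10, 80409541 to 80433976, Entrez 21423), stood at 71.2, 70 and 74.2 CPM in Ctrl and at 58.1, 52.6 and 57.2 CPM in TGFb. The groups did not overlap, and Tcf3 fell by 0.36 on the log2 scale (SE 0.0508, adjusted p = 3.6e-05), which left 77.9% of its Ctrl mean. Its expected counts were whole in Ctrl (1128, 1136 and 1220) and not whole in the 6 libraries of TGFb and SIS3_TGFb. In those 6 libraries the authors' counting may have divided some of its reads with other genes. The departures from whole numbers were small (943.01 in TGFb replicate 1 and 858.87 in TGFb replicate 3), and how far reads were shared was not measured.

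Tcf12, which acts with E2A in early T cells (chromosome 9, 71844252 to 72111893, Entrez 21406), stood at 80.7, 76 and 79.2 CPM in Ctrl and at 70.8, 69 and 67.4 CPM in TGFb. The groups did not overlap, and the fall was smaller, -0.19 ± 0.0407 (adjusted p = 0.00191).

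Tcf4 (Entrez 21413) stood at 80.6, 71.2 and 76.2 CPM in Ctrl and at 72.2, 69.7 and 70 CPM in TGFb, and the groups overlapped. Its log2 change of -0.11 ± 0.0506 did not pass the test (adjusted p = 0.124), with a 95% interval of -0.213 to 0.002. The test was passed when Ctrl replicate 2 was left out (-0.15, adjusted p = 0.039) or upper-quartile factors were used (-0.15, adjusted p = 0.025). Several defining genes of plasmacytoid dendritic cells were near 0: Siglech ranged from 0 to 0.177 CPM, Ly6d from 0 to 0.123 CPM and Ccr9 from 0 to 0.369 CPM over the 9 libraries. Of the same marker list, Klk1, Cox6a2 and Spib reached at most 0.465 CPM, and Pacsin1 ranged from 0.0631 to 2.36 CPM. Irf8 and Bst2, which NK cells also express, made up nearly all of that list's sum.

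**Figure D1:**
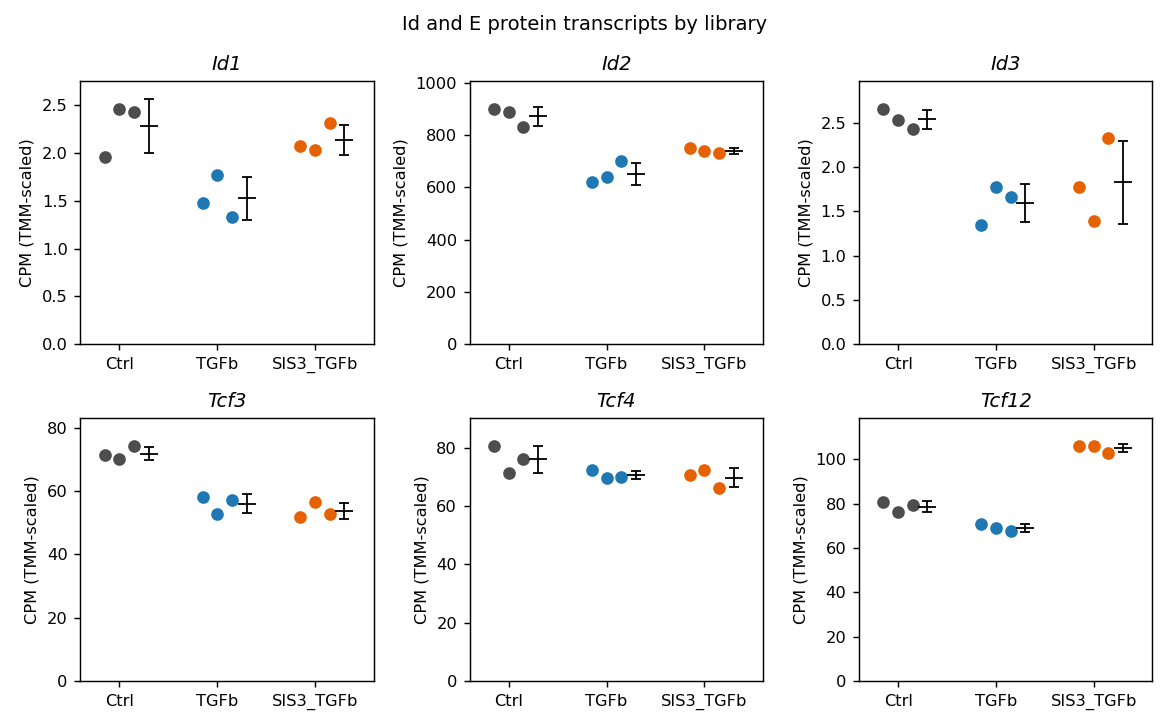
Level of each member in CPM with TMM scaling (vertical axis, from 0) in the 9 libraries, by group; points are libraries, and the line with bars is the mean ± SD over 3 libraries. Id2 lies highest in Ctrl and lowest in TGFb with SIS3_TGFb between, while Tcf12 in SIS3_TGFb (103 to 106 CPM) lies above both other groups.

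The second comparison, SIS3_TGFb versus TGFb, addressed the effect of SIS3 where TGF-β1 was present in both groups. Tcf12 and Id2 rose, and the other 4 members did not pass, against 41.8% of all genes past the test and 21.2% of all genes risen. The median log2 change of the members was 0.19, beside 0.012 over all genes. Libraries did not overlap for 3 of the 6 members (Id1, Id2 and Tcf12), against 51.4% of all genes. Without scaling factors the whole table split into 3690 rises and 1501 falls, against 2585 and 2519.

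Tcf12 had the smallest p of the members in this step and ranked 119 by p among the 12212 genes. It stood at 106, 106 and 103 CPM in SIS3_TGFb against 70.8, 69 and 67.4 CPM in TGFb. The groups lay far apart, with a log2 change of 0.61 ± 0.0397 (adjusted p = 1.38e-08), a 1.52-fold rise. Of all genes, 8.93% had a larger change in either direction.

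Id2 rose by 0.18 ± 0.0452 on the log2 scale (adjusted p = 0.00471), and 50.6% of all genes had a larger change. Its SIS3_TGFb mean was 84.7% of the Ctrl mean. Leaving out any 1 library kept the call, with log2 changes between 0.14 and 0.23.

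Id1 stood at 2.07, 2.03 and 2.32 CPM in SIS3_TGFb, above every TGFb library, but its log2 change of 0.48 ± 0.216 did not pass (adjusted p = 0.0862, interval 0.023 to 0.943). It passed without scaling factors (0.57, adjusted p = 0.0485). Id3 stood at 1.77, 1.39 and 2.32 CPM and overlapped with TGFb (0.2 ± 0.238, interval -0.31 to 0.704). Its highest library, SIS3_TGFb replicate 3, also had the most macrophage marker transcripts (1830 CPM, where replicates 1 and 2 had 1180 and 1100 CPM). Without it the log2 change of Id3 was -0.012. In Ctrl the order was the reverse, with macrophage markers at 1320, 1610 and 1760 CPM where Id3 was 2.65, 2.53 and 2.43 CPM. The part of these markers in the Id3 level was not tested.

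Tcf3 stayed low, at 51.8, 56.5 and 52.6 CPM, and overlapped with TGFb. Its log2 change of -0.06 ± 0.0518 did not pass (adjusted p = 0.378), with an interval of -0.171 to 0.05, and turned to 0.023 without scaling factors. Tcf4 stood at 70.6, 72.5 and 66.1 CPM, at -0.019 ± 0.0507 (adjusted p = 0.795, interval -0.127 to 0.089). It turned to 0.064 without scaling factors and to 0.018 without SIS3_TGFb replicate 3.

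**Figure D2:**
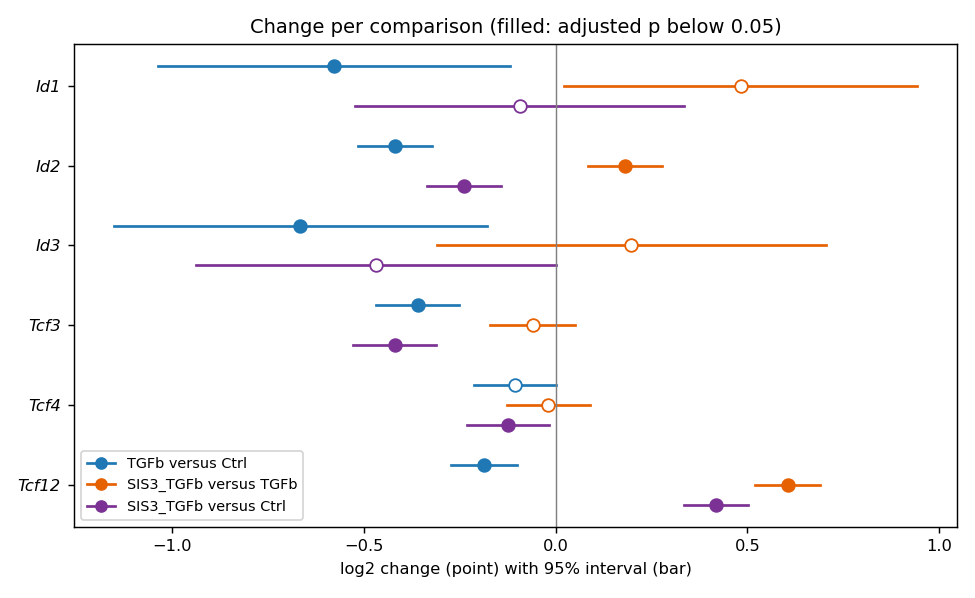
Log2 change of each member (horizontal axis; points, with bars for the 95% interval) in the 3 comparisons, filled where the adjusted p is below 0.05. Intervals of Id1 and Id3 are several times wider than those of Id2, Tcf3, Tcf4 and Tcf12, and Tcf12 alone among the members lies above 0 in SIS3_TGFb versus Ctrl.

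SIS3_TGFb versus Ctrl compared cells given both agents with untreated cells. It shares its libraries with the other comparisons, so its values are set beside them as a description of end levels. Tcf12 ended above Ctrl (0.42 ± 0.0392, adjusted p = 2.25e-07), at 134% of its Ctrl mean. Tcf3 ended below Ctrl (-0.42 ± 0.0506, adjusted p = 3.73e-06), at 74.7% of the Ctrl mean, and Id2 also ended below it (-0.24 ± 0.0451, adjusted p = 0.000321). In all, 3 members fell (Id2, Tcf3 and Tcf4) and 1 rose, against 53.9% of all genes past the test, 24.9% fallen and 29% risen.

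Id3 was lower in every SIS3_TGFb library than in every Ctrl library but did not pass (-0.47 ± 0.22, adjusted p = 0.085), and it passed without SIS3_TGFb replicate 3 (-0.68, adjusted p = 0.0278). Id1 overlapped with Ctrl (-0.094 ± 0.202, adjusted p = 0.72). The fall of Tcf4 (-0.12 ± 0.0503, adjusted p = 0.048) came from groups that overlapped. That call ended in DESeq2 (adjusted p = 0.0543), without scaling factors (0.301), with the stricter filter (0.0542), and without Ctrl replicate 1 (0.212), Ctrl replicate 3 (0.0958), TGFb replicate 1 (0.0534), TGFb replicate 2 (0.0516), SIS3_TGFb replicate 1 (0.0778) or SIS3_TGFb replicate 3 (0.182). Libraries did not overlap for 4 of the 6 members (Id2, Id3, Tcf3 and Tcf12), against 61.1% of all genes.

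Tcf12 held a larger part of the E protein transcripts in SIS3_TGFb than in the other groups. The count ratio of Tcf12 to Tcf3 within a library, which is free of depth and scaling, was 1.13, 1.09 and 1.07 in Ctrl, 1.22, 1.31 and 1.18 in TGFb and 2.05, 1.87 and 1.96 in SIS3_TGFb. No group overlapped with another in this ratio. The ratio of Tcf12 to Tcf4 was 1.04 ± 0.0323 in Ctrl, 0.978 ± 0.0134 in TGFb and 1.51 ± 0.0499 in SIS3_TGFb. Per kilobase of exon, Tcf12 made up 29.2% ± 0.427 of the summed E protein level in Ctrl, 30.9% ± 0.949 in TGFb and 41.4% ± 0.941 in SIS3_TGFb. With the median coding transcript as the length these shares were 24.1% ± 0.204, 24.4% ± 0.538 and 33.4% ± 0.716. These ratios and shares were not tested, since the members were chosen with results known.

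**Figure D3:**
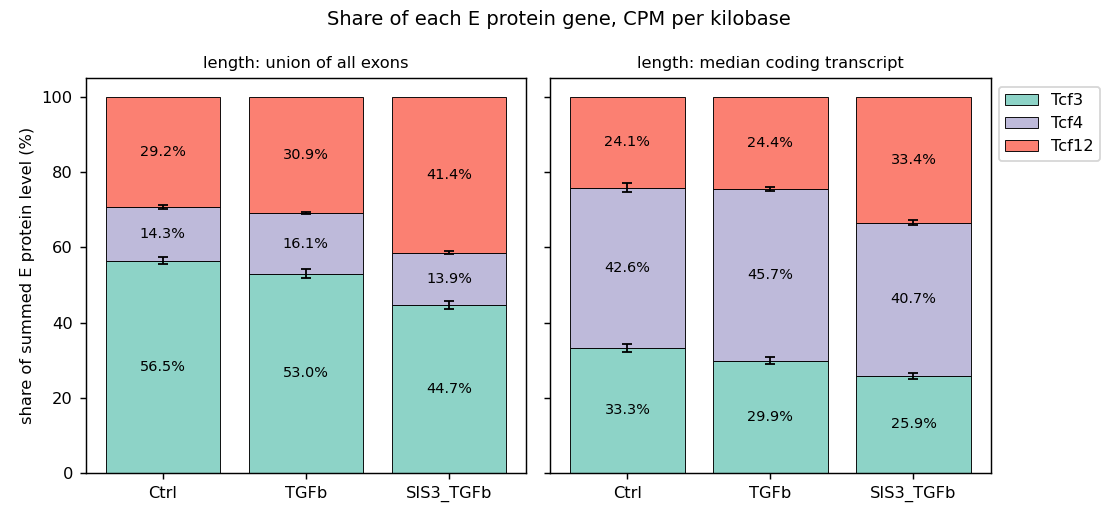
Share of Tcf3, Tcf4 and Tcf12 in the summed E protein level (vertical axis, percent, from CPM per kilobase) in the 3 groups, with the exon union (left) and the median coding transcript (right) as gene length; each error bar is the SD over 3 libraries of the share of the segment under it. The share of Tcf12 is largest in SIS3_TGFb under both lengths (41.4% and 33.4%), while the shares of Tcf3 and Tcf4 trade order with the length.

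The summed Id level per kilobase was 361 ± 15 CPM in Ctrl, 270 ± 17.4 in TGFb and 306 ± 3.87 in SIS3_TGFb, and the summed E protein level 39.7 ± 1.15, 32.9 ± 1.07 and 37.4 ± 1.1. The ratio of the sums was 9.28, 9.59 and 8.49 in Ctrl, 7.53, 8.32 and 8.76 in TGFb and 8.37, 7.89 and 8.29 in SIS3_TGFb. The Ctrl and TGFb libraries overlapped, and each SIS3_TGFb library lay below each Ctrl library. With the median coding transcript the ratios were 9.1, 9.68 and 8.54 in Ctrl, 7.23, 7.87 and 8.43 in TGFb and 8.13, 7.74 and 8.19 in SIS3_TGFb, and the Ctrl and TGFb libraries then did not overlap. The separation of Ctrl from TGFb in this ratio thus depended on the gene length used.

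Ratios of single pairs differed by partner. Id2 to Tcf12 by count was 11.1, 11.7 and 10.5 in Ctrl, 8.72, 9.24 and 10.4 in TGFb and 7.05, 6.96 and 7.07 in SIS3_TGFb, with no overlap between groups. Id2 to Tcf3 was 12.2 ± 0.85 in Ctrl, 11.7 ± 0.885 in TGFb and 13.8 ± 0.713 in SIS3_TGFb, and here the Ctrl and TGFb libraries overlapped. The lowest Id2 to Tcf12 ratios and the highest Id2 to Tcf3 ratios were thus in the same group.

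**Figure D4:**
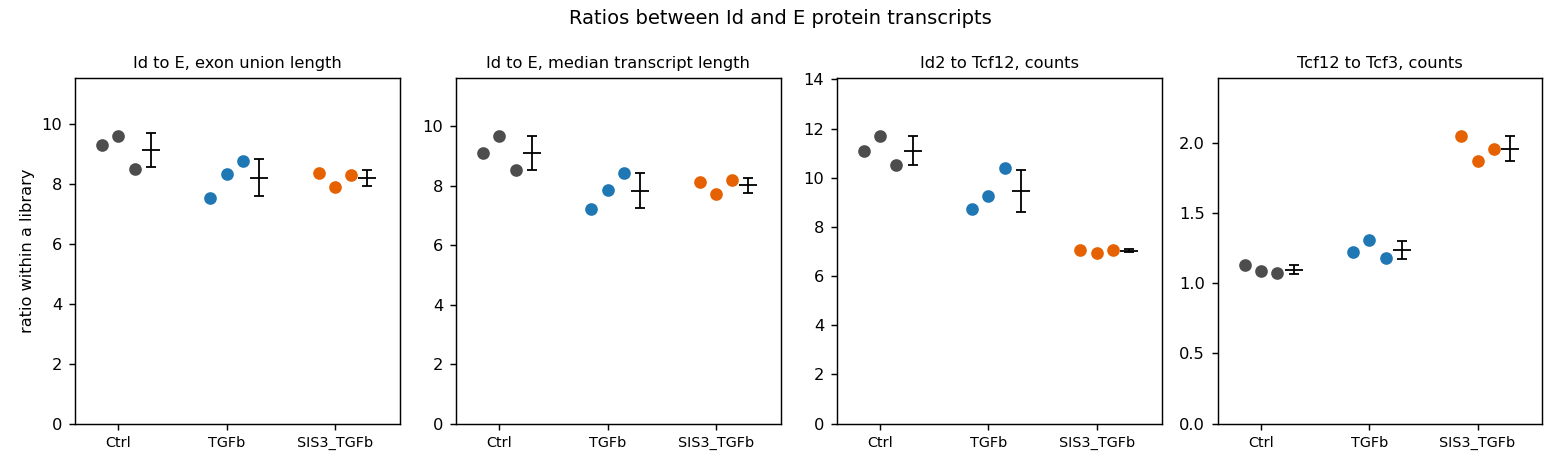
Ratios within each library (vertical axes, from 0) of the summed Id to the summed E protein level with each gene length, and of Id2 to Tcf12 and Tcf12 to Tcf3 by count; points are libraries, and the line with bars is the mean ± SD over 3 libraries. Id2 to Tcf12 is lowest in SIS3_TGFb (6.96 to 7.07) and Tcf12 to Tcf3 is highest there (1.87 to 2.05).

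Genes around the Id and E proteins were read from 6 lists. The counts past the test in each list stand beside 34.3% of all genes in TGFb versus Ctrl. In SIS3_TGFb versus TGFb they stand beside 41.8%. Of 9 genes that govern the stability of Id and E proteins, 2 rose, 1 fell and 6 did not pass in TGFb versus Ctrl (median -0.036). Usp1, the deubiquitinase that stabilises Id proteins, fell (-0.38 ± 0.0477, adjusted p = 1.19e-05), and Smurf2, a ubiquitin ligase of the TGF-β pathway, rose (0.44 ± 0.0603). In SIS3_TGFb versus TGFb 1 rose, 1 fell and 7 did not pass (median -0.029): Usp1 rose (0.15 ± 0.0481, adjusted p = 0.0185) and Smurf2 fell (-0.16 ± 0.0586, adjusted p = 0.041). Those calls of the second step ended in DESeq2 (adjusted p = 0.059 and 0.104). That of Usp1 also ended without TGFb replicate 3 (0.0834) or SIS3_TGFb replicate 2 (0.0934), and that of Smurf2 without scaling factors (0.355), with no filter (0.0531), and without TGFb replicate 1 (0.111), TGFb replicate 2 (0.0735), SIS3_TGFb replicate 1 (0.105), SIS3_TGFb replicate 2 (0.0551) or SIS3_TGFb replicate 3 (0.0952).

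Among 14 tested genes of the BMP and SMAD1/5 pathway, which drives Id1 and Id3 in other cells, 4 rose, 0 fell and 10 did not pass in TGFb versus Ctrl (median -0.056). The rises included the inhibitory SMADs Smad7 (1.92 ± 0.102) and Smad6 (1.47 ± 0.313) and the type I receptor Acvr1 (0.81 ± 0.0805). In SIS3_TGFb versus TGFb 4 rose, 0 fell and 10 did not pass (median 0.197). Of all genes, 34.3% passed in the first step and 41.8% in the second. Smad1, which carries BMP signals, rose (0.76 ± 0.0755, adjusted p = 1.16e-06), as did the shared partner Smad4 (0.18 ± 0.0505, adjusted p = 0.00982), although the call of Smad4 ended in DESeq2 (0.0709). Smad7 (0.25 ± 0.0817, adjusted p = 0.0226) and Acvr1 (0.21 ± 0.0725, adjusted p = 0.0268) rose above their TGFb levels too. The call of Smad7 ended in DESeq2 (0.0653) and without TGFb replicate 1 (0.104), SIS3_TGFb replicate 1 (0.0988) or SIS3_TGFb replicate 2 (0.0788). The count of 4 was 1 in DESeq2 and 2 without TGFb replicate 1 or SIS3_TGFb replicate 2. Smad1 kept its call in all of these runs, and Smad4 in those that left out a library. The call of Acvr1 thus ended in each of them.

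Of 21 factors known to act on Id genes 8 rose, 6 fell and 7 did not pass in TGFb versus Ctrl (median -0.022). The share of all genes past that test was 34.3%. Egr1, an inducer of Id3 in lymphocytes, rose (1.13 ± 0.0635), as did Runx3 (0.84 ± 0.0474), and Myc fell (-0.97 ± 0.0576). Smad3, the target of SIS3, rose (1.18 ± 0.155) and then fell in SIS3_TGFb versus TGFb (-0.8 ± 0.148). Myc fell further in SIS3_TGFb versus TGFb (-1.67 ± 0.0721, adjusted p = 1.1e-10). In that second step 5 rose, 6 fell and 10 did not pass (median -0.013). Ets1, which NK cells need for normal Id2 levels, fell in both steps (-0.55 ± 0.0371, adjusted p = 8.63e-09, then -0.47 ± 0.0384, adjusted p = 1.28e-07). Atf3, a partner of Smad3 in repressing Id1 in epithelial cells, did not pass with TGF-β1 (-0.17 ± 0.153) and rose with SIS3 (0.4 ± 0.149, adjusted p = 0.0437). This last call ended with only the 6 libraries of the comparison (0.0543), and without Ctrl replicate 2 (0.0554), Ctrl replicate 3 (0.0507), TGFb replicate 1 (0.121), TGFb replicate 3 (0.142) or SIS3_TGFb replicate 3 (0.244).

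Of 14 tested cofactors of E proteins 3 rose, 3 fell and 8 did not pass in TGFb versus Ctrl (median 0.05). Over all genes the share past the test was 34.3% there and 41.8% in SIS3_TGFb versus TGFb. Ssbp3, which stabilises LDB1 complexes, rose (0.71 ± 0.0374), and Cbfa2t3, a corepressor that binds E proteins, fell (-0.71 ± 0.134). In SIS3_TGFb versus TGFb 3 rose, 1 fell and 10 did not pass (median -0.058), with rises of the LIM-only adaptor Lmo4 (0.94 ± 0.1) and the acetyltransferase Crebbp (0.38 ± 0.0731). Tissue-specific partners of E proteins were scarce: 13 of 32 were in the table and 4 were tested, of which 0 passed with TGF-β1 in edgeR and 0 in DESeq2. At an unadjusted edgeR p below 0.05 there were 2, Tal1 and Twist1, named after their values were seen (adjusted p = 0.0794 and 0.066), and 1 gene passed without Ctrl replicate 1 or TGFb replicate 2. With SIS3, Twist1 was the 1 of the 4 that passed (2.1 ± 0.578, adjusted p = 0.00848), a call that ended without SIS3_TGFb replicate 2 (0.0503). Twist1 rests on few counts, 1 to 4 per library in TGFb and 10 to 21 in SIS3_TGFb.

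Of 19 tested lymphocyte genes known to respond to E proteins 5 rose, 3 fell and 11 did not pass in TGFb versus Ctrl (median 0.042), and 3 rose, 2 fell and 14 did not pass in SIS3_TGFb versus TGFb (median 0.018). Foxo1, a factor of lymphocyte homing and development, rose with TGF-β1 (0.62 ± 0.0563). Gfi1, a repressor induced by E2A, fell in both steps (-0.28 ± 0.0375 and -0.25 ± 0.0383). The cell cycle inhibitor Cdkn1a (0.44 ± 0.0347) and the Wnt pathway factor Lef1 (0.41 ± 0.0453) rose with SIS3. These counts stand beside the 34.3% and 41.8% of all genes past the test in the same comparisons.

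**Figure D5:**
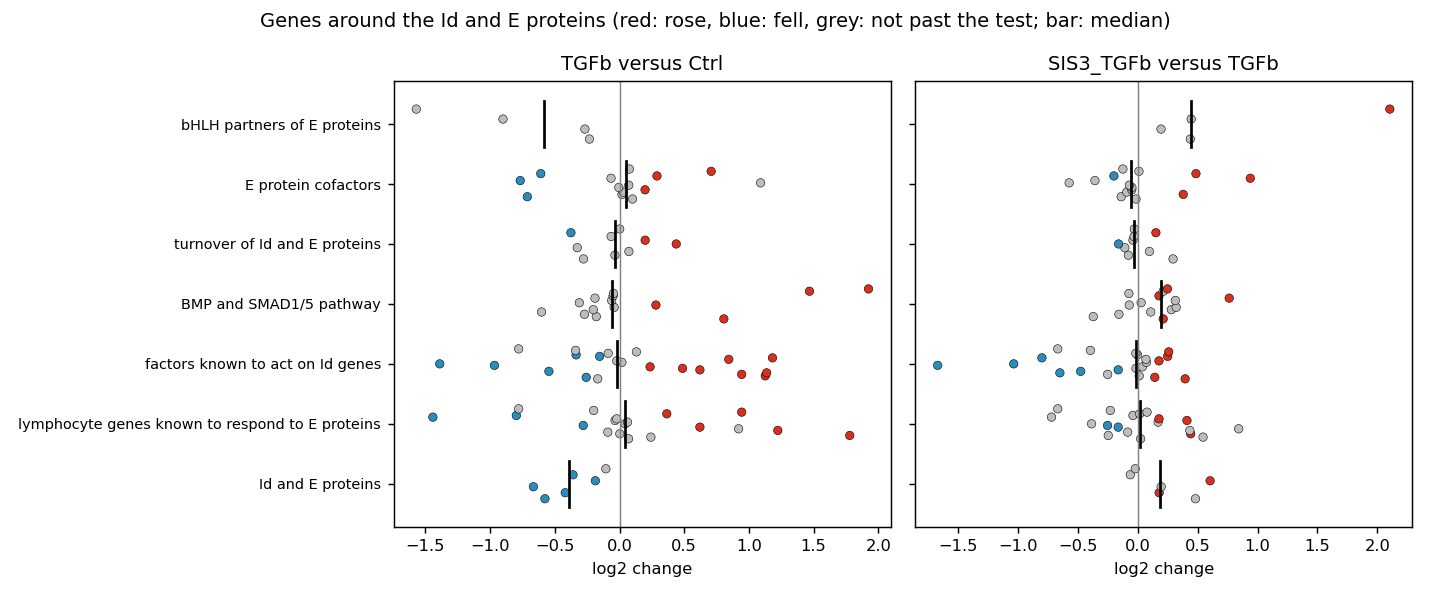
Log2 change (horizontal axis) of each tested gene of the 6 lists and of the 6 members in TGFb versus Ctrl (left) and SIS3_TGFb versus TGFb (right); red points rose, blue points fell, grey points did not pass, and the black bar is the median. The members all lie below 0 on the left (median -0.39), whereas lists with more than 4 tested genes have points on both sides of 0.

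The genes whose profiles lay closest to each member over the 9 libraries were found among 10478 genes by the root mean square difference of log2 CPM, each gene centred on its own mean. For Id2 these were Ccnd2 (0.0388), Wdr75 (0.0402) and Mindy1 (0.0493), where Id2 itself varied by 0.18 about its mean. For Tcf12 they were Hspa9 (0.0462), Add3 (0.0485) and Pdzd8 (0.05), against 0.254 for Tcf12 itself. For Tcf3 they were Tmem135 (0.0385), Arhgap18 (0.0425) and Mtmr1 (0.0437), against 0.193. Tcf4 varied by only 0.0769, and Bhlhe40, Kansl2 and Polr2a lay within 0.032 of it. The nearest genes of Id1 (Ccnb1, P2ry14 and Fam160a2) and Id3 (Pnp2, Stom and Armcx4) lay further off, at 0.0821 to 0.0945 and 0.12 to 0.143. Id1 and Id3 themselves also varied more, by 0.275 and 0.328. The closeness describes these libraries, which share 3 group means.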

How the data were processed

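RNA (poly-A selected, 100 bp paired reads) was sequenced on a DNBseq instrument, per the labels' protocols. The authors deposited 1 table of expected counts per gene, not normalized. The submitters' processing notes name RSEM, Bowtie2, HISAT2, StringTie, Cufflinks and DESeq2, with mm10 and GRCm38 as builds, but the sources used here give neither versions and roles nor whether counting used strand. After rounding to whole numbers, genes passed edgeR's filterByExpr (minimum count 10, minimum total 15), were scaled by TMM and were tested in all 9 libraries with 1 mean per group by edgeR's quasi-likelihood test (edgeR 4.0.16, R 4.3.3), with Benjamini-Hochberg adjustment over 12212 genes and a threshold of 0.05. The SE follows from the log2 change and its F value, and intervals are 95%. Totals of 15714973 to 16718673 expected counts limit genes of low count most. The script was tested on simulated data. CPM values use TMM; levels between genes are per kilobase of exon. Alternatives were upper-quartile or no scaling, DESeq2 (1.42.0), other filters, only the 6 libraries compared, a replicate block and leaving out each library; median coding transcript length was added after seeing the data. Named genes were the 6 members, up to 3 genes per list and step with the smallest p among those past the test, Atf3, Smad3 and Usp1, and the 3 genes closest in profile to each member; 1 gene that this rule names is not reported here. The members and lists were chosen with earlier results of these data known. Whether the labels' replicate numbers pair the libraries is not known, and the main test used no pairing. No column of per-sample values was left out.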

Additional observations from a re-analysis of the deposited data

How the results depend on the processing

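Id2, Tcf3 and Tcf12 kept every call they had under every alternative run. Leaving out 1 library at a time gave -0.70 to -0.49 for Id1 and -0.75 to -0.56 for Id3 in TGFb versus Ctrl, -0.15 to -0.062 for Tcf4 there, -0.05 to 0.018 for Tcf4 and -0.012 to 0.36 for Id3 in SIS3_TGFb versus TGFb, and -0.17 to -0.082 for Tcf4 and -0.68 to -0.31 for Id3 in SIS3_TGFb versus Ctrl. In TGFb versus Ctrl, Id1 lost its call in DESeq2 (-0.59), with no filter (-0.58) and with the 6 libraries compared (-0.58), and Id3 in DESeq2 (-0.67), while Tcf4 passed with upper-quartile factors (-0.15). Without scaling factors, Id1 passed (0.57) and Tcf3 (0.023) and Tcf4 (0.064) turned direction in SIS3_TGFb versus TGFb. In SIS3_TGFb versus Ctrl, Tcf4 lost its call without scaling factors (-0.064), in DESeq2 (-0.14) and with the stricter filter (-0.12). The cause was not tested. Of the 6 members, 3 passed in TGFb versus Ctrl in DESeq2 and 3 with the stricter filter, which removes Id1 and Id3, and 3 to 4 with 1 library left out.

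Partners of E proteins past the test numbered 1 with no filter (0 to 1 with 1 library left out) in TGFb versus Ctrl, and 0 with the stricter filter and 0 with the 6 libraries compared (0 to 1) in SIS3_TGFb versus TGFb. Genes of Id and E protein stability numbered 5 with upper-quartile factors in TGFb versus Ctrl, and 0 in DESeq2 (1 to 3 with 1 library left out) in SIS3_TGFb versus TGFb. BMP pathway genes there numbered 1 in DESeq2 (2 to 4). Without scaling factors the summed Id level in SIS3_TGFb was 316 and the summed E protein level 38.7 CPM per kilobase. With the median coding transcript the summed Id levels were 690, 516 and 585 and the summed E protein levels 75.9, 65.8 and 73 CPM per kilobase in Ctrl, TGFb and SIS3_TGFb. SIS3_TGFb versus Ctrl split into 4222 rises and 2395 falls without scaling factors, against 3542 and 3043.

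Deviations from the group means correlated at r from -0.333 to 0.227 between libraries with the same number. Between libraries with different numbers r ran from -0.353 to 0.409. With 3 libraries per group these values cannot tell whether the numbers pair libraries by mouse or culture. With the replicate block, 3942, 4803 and 6346 genes passed in the 3 comparisons, against 4190, 5104 and 6585. With the block Id1 (-0.57, adjusted p = 0.0724) and Id3 (-0.67, adjusted p = 0.0519) in TGFb versus Ctrl and Tcf4 (-0.12, adjusted p = 0.0541) in SIS3_TGFb versus Ctrl did not pass, nor did Atf3 (0.39, adjusted p = 0.0547) and Smurf2 (-0.16, adjusted p = 0.0634) in SIS3_TGFb versus TGFb. Of the members 3 then passed in TGFb versus Ctrl, and of the stability genes 1 in SIS3_TGFb versus TGFb.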
